A study of Homo sapiens with 4 samples.

Results

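The genes described here encode the enzymes that place or remove methyl groups on histones and on DNA, together with their close relatives. They were chosen by symbol alone, as every gene whose name in the array annotation starts with KDM, KMT, SETD, NSD, EZH, EHMT, SUV39, DNMT, TET, PRMT or PRDM in its numbered forms. The rule found 66 genes, measured by 117 probes, among 18661 annotated genes. Of these, 35 genes (47 probes) were detected on at least 1 of 4 arrays, where detected means a detection p under 0.01 (the share of the array's negative controls that are at least as bright as the probe). That was 53.0% of the members, against 54.3% of all annotated genes. The remaining 31 members were detected on no array and have no level here.

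The cells were SW1353, a human chondrosarcoma line that is widely used as a chondrocyte model and is labelled a chondrocyte in the sample records. Con cells received DMSO, the vehicle. IL1 cells received DMSO and then IL-1α, a cytokine that drives cartilage breakdown, for 6 h. IL1_TSA cells received 250 ng/ml trichostatin A (TSA), an inhibitor of the zinc-dependent histone deacetylases, 1 h before the same stimulus, and Con_TSA cells received TSA without IL-1α. All conditions are the same single cell line, and the study's legends name a longer stimulation than the labelled 6 h, which is used here. Each condition was 1 array, so no difference below has a replicate check, and no p-value is given for any of them.

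A methyl group on a histone carries a different message depending on the residue. Methylation of lysine 4 of histone H3 (H3K4) marks active promoters and enhancers, whereas trimethylation of H3K9, H3K27 and H4K20 marks silent chromatin. Methylation of cytosine in DNA silences many promoters. Lysine marks are written by SET domain enzymes (the KMT2, KMT5, SETD, EZH, EHMT and SUV39 families) and erased by KDM demethylases. The PRMT enzymes methylate arginine, in histones and in many other proteins, and the PRDM proteins are mostly zinc finger transcription factors whose PR domain resembles a SET domain. Deacetylase inhibitors act on acetylation, a separate mark, and are known to alter the transcripts of many chromatin genes.

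Detection was uneven across the families. All detected KDM, PRMT and SETD genes were detected on every array, namely 7 of 15 KDM genes, 7 of 8 PRMT genes and 5 of 7 SETD and SETDB genes. DNMT1 and DNMT3B were detected on all 4 arrays, whereas DNMT3A and DNMT3L, the other de novo DNA methyltransferase and its cofactor, were not detected on any. None of the 3 NSD genes, which write H3K36 methylation, passed detection, and nor did TET1 or TET2, the dioxygenases that start DNA demethylation. EZH2 was detected and its paralogue EZH1 was not. The H3K27 demethylase KDM6A was detected and KDM6B was not. Of the 13 PRDM genes, 4 were detected. The undetected members nearest the limit had a lowest detection p of 0.0105 for NSD3 and 0.0132 for KDM4C. The detected members nearest it had a lowest p of 0.00395 (EHMT2, KMT2A and SUV39H2). A second DNMT3B probe also stopped at 0.0105 and was left out of that gene's level.

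The regulatory sequence shared by the detected members was searched for short promoter motifs. For each of the 35 genes the 250 bases before the first start listed in RefSeq (GRCh38.p14) were read, and 5 are printed because they belong to members that the results below turn on. EZH2 (chr7:148884292-148884541, minus strand) and SETD3 (chr14:99480860-99481109, minus strand) were higher in both TSA arrays. PRDM10 (chr11:130002836-130003085, minus strand) and KMT5B (chr11:68213649-68213898, minus strand) were lower in both. PRDM1 (chr6:106086086-106086335, plus strand) was the member with the largest difference after IL-1. Capitals mark the GC box, GGGCGG on either strand, a sequence that Sp1-type factors can bind.
EZH2: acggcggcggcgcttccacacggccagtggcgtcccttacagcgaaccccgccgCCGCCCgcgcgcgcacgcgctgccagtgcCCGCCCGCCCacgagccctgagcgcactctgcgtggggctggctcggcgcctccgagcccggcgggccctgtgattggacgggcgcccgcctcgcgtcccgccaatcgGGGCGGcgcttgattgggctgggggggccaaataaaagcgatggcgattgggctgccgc
SETD3: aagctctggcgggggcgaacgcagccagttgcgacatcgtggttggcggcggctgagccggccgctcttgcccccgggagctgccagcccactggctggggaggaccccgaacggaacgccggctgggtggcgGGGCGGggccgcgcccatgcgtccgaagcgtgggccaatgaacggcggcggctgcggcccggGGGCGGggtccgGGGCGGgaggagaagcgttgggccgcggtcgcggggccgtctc
PRDM10: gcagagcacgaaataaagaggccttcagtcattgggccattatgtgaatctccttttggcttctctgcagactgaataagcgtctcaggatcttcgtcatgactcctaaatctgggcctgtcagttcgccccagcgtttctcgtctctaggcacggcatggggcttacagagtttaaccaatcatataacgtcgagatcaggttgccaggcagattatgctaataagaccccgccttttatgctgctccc
KMT5B: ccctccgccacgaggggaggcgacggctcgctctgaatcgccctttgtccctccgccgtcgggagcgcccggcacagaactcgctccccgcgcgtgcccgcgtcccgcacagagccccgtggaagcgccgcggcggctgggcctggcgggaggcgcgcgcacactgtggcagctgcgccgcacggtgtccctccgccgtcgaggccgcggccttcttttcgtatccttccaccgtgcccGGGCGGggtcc
PRDM1: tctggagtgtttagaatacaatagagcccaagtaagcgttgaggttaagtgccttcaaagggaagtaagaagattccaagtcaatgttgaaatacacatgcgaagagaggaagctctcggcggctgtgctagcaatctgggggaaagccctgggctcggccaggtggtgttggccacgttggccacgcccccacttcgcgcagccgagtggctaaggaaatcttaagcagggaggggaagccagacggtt

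The printed EZH2 sequence held 4 matches to the GC box, 2 of them overlapping, SETD3 held 3 and KMT5B held 1, whereas those of PRDM10 and PRDM1 held 0. A GC box was present in 23 of 35 member promoters (65.7%), in 55.4% of the promoters of annotated genes and in 42.3% of all 27305 promoters. It was present for all 3 members higher in both TSA contrasts and for 5 of the 10 lower in both. CCAAT was found on either strand in 37.1% of members, 34.8% of annotated genes and 33.0% of all promoters. TATAAA was found in 1 member (PRDM11), in 9.12% of annotated genes and in 11.1% of all promoters. The NF-κB consensus was found in 5 of 35 (14.3%), in 10.8% of annotated genes and in 9.57% of all promoters. The members' promoters held a median of 23 CpG dinucleotides, from 3 to 48, against a median of 11 over all promoters. The latter include genes not annotated or not detected here, and no median was taken over annotated or detected genes alone. These matches describe letters in a window, and EZH2, KMT5B, PRDM10 and PRDM1 have other listed starts that were not shown.

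The arrays detected similar shares of probes but differed in brightness. Median raw intensity was 95.3 in Con, 91.5 in IL1, 113 in IL1_TSA and 86.9 in Con_TSA. Per array, 26.8% to 28.8% of all probes and 39 to 45 member probes were detected. Both treatments could be seen in genes known to respond to them. In IL1, 5 of 5 IL-1 target genes (MMP1, MMP3, MMP13, IL6 and CXCL8) were higher than in Con, and 4 of 4 detected TSA-responsive genes were higher in both TSA arrays. Of 12 chondrocyte markers, SOX9, COL11A1 and HAPLN1 were detected and the other 9, including COL2A1, ACAN and COMP, were not. None of the probed leucocyte or epithelial markers was detected, and of the endothelial markers VWF was. Summed raw intensity of the chondrocyte markers lay between 4207 and 6079.

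Levels below are normalised log2 intensities, averaged over the detected probes of a gene. A gene was called higher or lower when it differed by at least 1.5-fold, 0.58 in log2 units, and was detected on the brighter array. A gene not detected on the dimmer array has only a bound on its fold, given as at least. The spread between probes of the same gene was taken within a pair of arrays. It therefore holds no variation between cultures or between arrays of the same condition. For IL1 against Con this spread was 0.40 (SD of a log2 difference, single probe) below a level of 7 and 0.19 above 12. For IL1_TSA against IL1 it was 0.45 and 0.23.

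**Figure D1:**
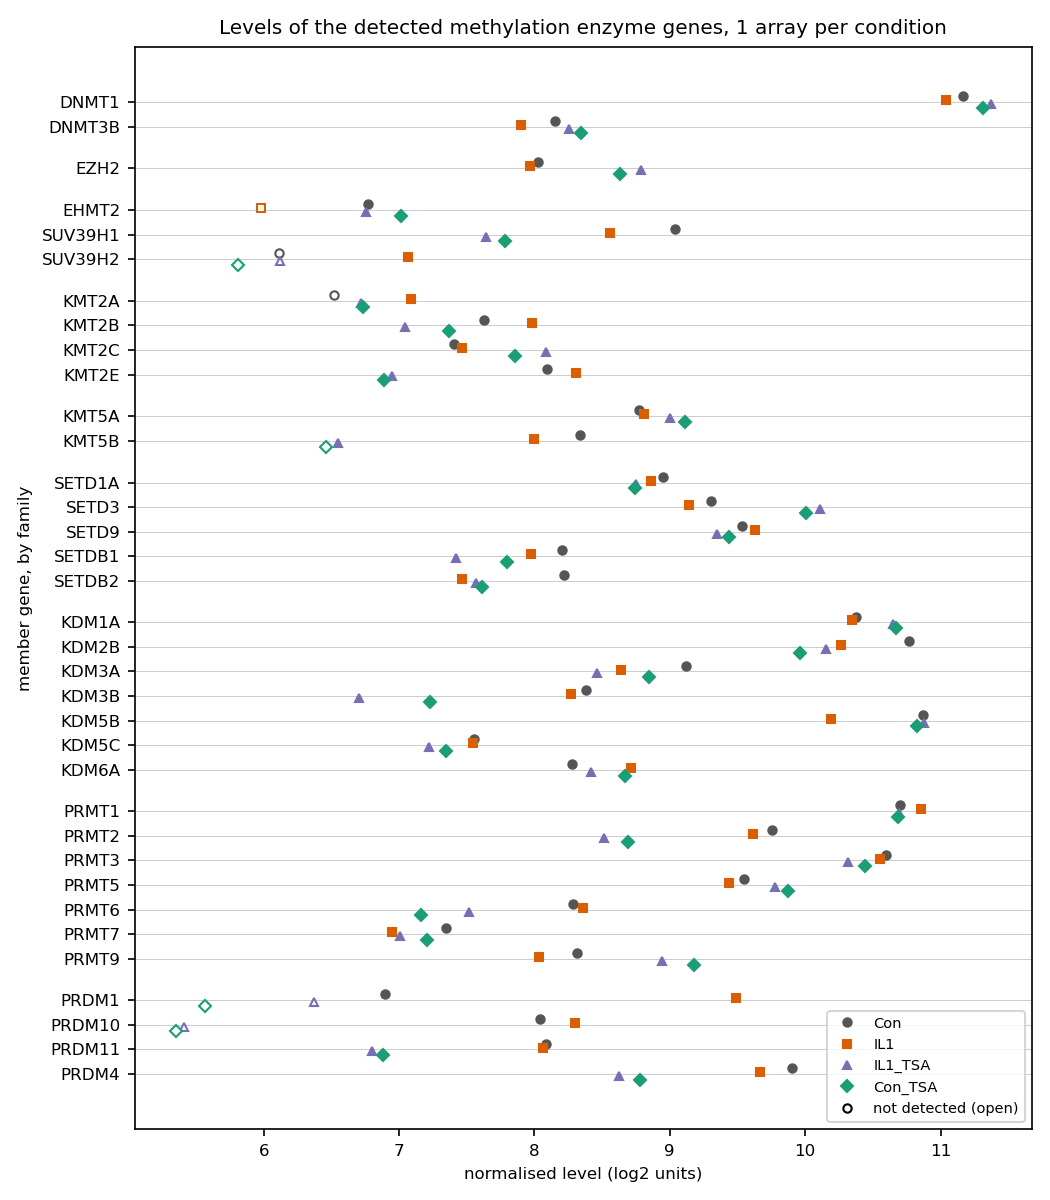
Normalised level (horizontal axis, log2 units) of the 35 detected genes, 1 symbol per array and 1 row per gene, grouped by family. Open symbols are arrays on which the gene was not detected. Each row is read on its own, since brightness also depends on the probe; the 4 PRDM genes at the foot lie further left in both TSA arrays than in Con or IL1.

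More members differed on TSA than on IL-1, and on TSA more were lower than higher. In Con_TSA against Con, 12 of 35 members were lower and 3 were higher, whereas over all 10128 genes analysed 16.4% were lower and 16.3% higher. In IL1_TSA against IL1, 12 were lower and 6 higher, against a background of 18.2% and 21.2%. These contrasts share no array. In both, 10 members were lower and 3 were higher (28.6% and 8.57% of the members), against 10.1% and 12.4% of all genes. The median difference of the members was -0.21 without IL-1 and -0.24 with it, against -0.01 and 0.02 over all genes. When only probes detected on all 4 arrays were used, 29 members remained. Of these 9 were lower and 3 higher without IL-1 (15% and 14% of 8350 genes), 8 were lower and 4 higher with it (16.6% and 18%), and 7 were lower and 3 higher in both (9.63% and 10.7%). Scaling the arrays by their medians in place of quantile normalisation moved the median of all genes to -0.19 without IL-1 and 0.22 with it. It also moved the share of higher genes among all called genes from 49.8% to 32.4% and from 53.8% to 69.8%. Under it the same 10 members were lower in both contrasts, whereas EZH2 and SETD3 were no longer called higher without IL-1 (differences of 0.41 and 0.52).

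**Figure D2:**
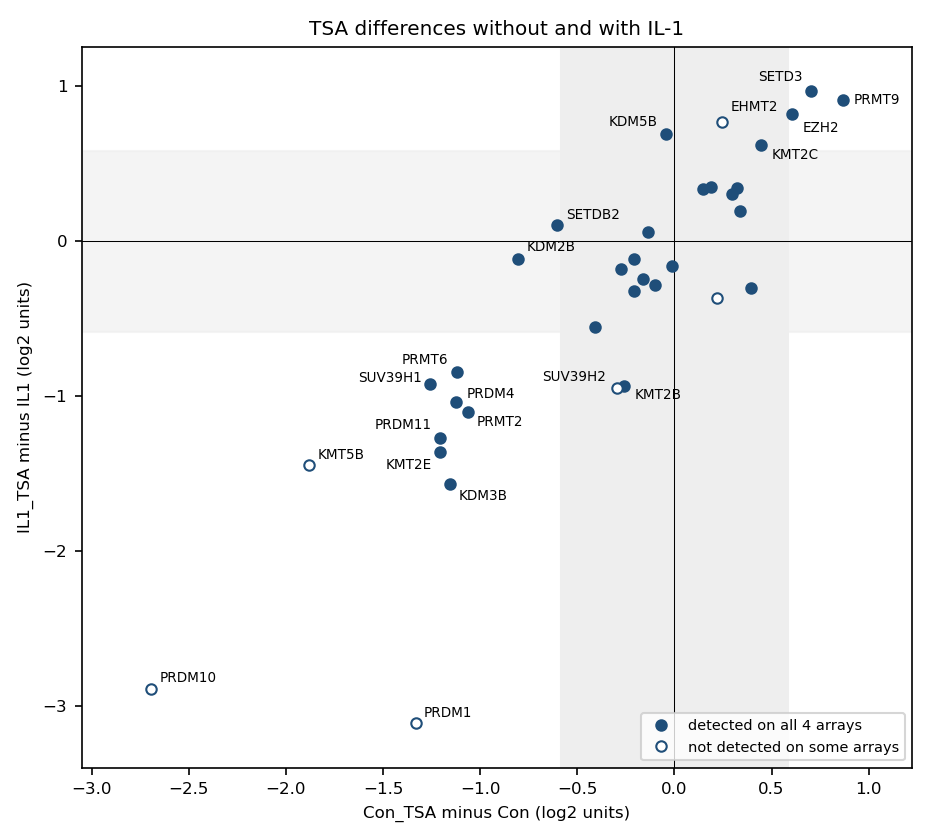
Difference between Con_TSA and Con (horizontal axis) and between IL1_TSA and IL1 (vertical axis), both in log2 units, 1 point per detected gene. Grey bands mark differences under 1.5-fold, open points were not detected on some arrays, and named genes passed 1.5-fold in at least 1 contrast. The lower left holds 10 genes and the upper right 3.

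In the PRDM family 4 of 4 detected genes were lower in both TSA contrasts, against 10.1% of all genes. PRDM1 and PRDM10 were detected only on the arrays without TSA, so neither could have been called higher on TSA. PRDM10, a zinc finger transcription factor, measured 8.04 in Con, 8.30 in IL1, 5.41 in IL1_TSA and 5.35 in Con_TSA. Its 2 probes had raw intensities of 418 and 266 in Con, 505 and 270 in IL1, 148 and 119 in IL1_TSA, and 108 and 84.6 in Con_TSA. Both probes were detected without TSA and neither was detected with it. The fold was therefore at least 2.67 against Con and at least 3.74 against IL1.

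PRDM4, another zinc finger factor, and PRDM11, a PR domain protein, were detected everywhere. PRDM4 measured 9.90 in Con, 9.67 in IL1, 8.63 in IL1_TSA and 8.78 in Con_TSA, so the TSA arrays stood lower by 2.18-fold alone and by 2.06-fold under IL-1. PRDM11 measured 8.09, 8.06, 6.80 and 6.88 in the same order, 2.31-fold and 2.41-fold lower. For each gene the TSA arrays lay together, well below the pair without TSA, and IL-1 moved neither by 1.5-fold.

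PRDM1 (BLIMP1), a transcriptional repressor best known for driving plasma cell differentiation, was the member in which IL-1 and TSA met. It measured 6.90 in Con, 9.49 in IL1, 6.37 in IL1_TSA and 5.57 in Con_TSA, from raw intensities of 190, 754, 193 and 103. It was not detected on the TSA arrays, where the detection p was 0.0105 with IL-1 and 0.0369 without. IL1 was thus 6.01-fold above Con, and IL1_TSA at least 8.54-fold below IL1. Without IL-1 the gene was already dim, so its difference of -1.33 between Con_TSA and Con supports a fold of at least 1.21 only. Its place among the 10 genes lower in both contrasts therefore rests on a level below detection. Of the 4 PRDM1 probes 1 was detected, and the values above are from it. The other 3 were detected on no array and differed by 0.00, -0.02 and 0.15 between IL1 and Con. The log2 difference of 2.59 between IL1 and Con was 0.96 in the deposited values, 1.94 without background correction and 0.68 when the 3 undetected probes were averaged in.

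Among the histone lysine methyltransferases, KMT5B (SUV420H1), which carries H4K20 from mono- to di- and trimethylation, differed most. It measured 8.34 in Con, 7.99 in IL1, 6.55 in IL1_TSA and 6.46 in Con_TSA. It was not detected in Con_TSA. The TSA arrays were lower by at least 3.28-fold without IL-1 and by 2.73-fold with it, and both of its detected probes showed the difference (-1.86 and -1.90 without IL-1, -1.55 and -1.34 with it), though neither was detected in Con_TSA and 1 of them was not detected in IL1_TSA. KMT5A, which makes H4K20 monomethylation, did not follow: its 4 levels lay between 8.77 and 9.11, with differences of 0.34 and 0.19 on TSA.

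SUV39H1, which trimethylates H3K9 in pericentromeric heterochromatin, measured 9.04 in Con, 8.56 in IL1, 7.64 in IL1_TSA and 7.78 in Con_TSA. The TSA arrays were below their partners by 2.39-fold (no IL-1) and 1.89-fold (IL-1). Its paralogue SUV39H2 was detected only in IL1, at 7.07, so its TSA difference can be stated only there, as at least 1.60-fold lower in IL1_TSA. For the same reason SUV39H2 could not have been called higher in IL1_TSA. EHMT2 (G9a), the main H3K9 dimethyltransferase, stayed near the detection limit. It measured 6.77 in Con, 6.75 in IL1_TSA and 7.02 in Con_TSA and was not detected in IL1 (5.98), so that its calls, lower in IL1 than in Con and higher in IL1_TSA than in IL1, have bounds of at least 1.03-fold and at least 1.02-fold. SETDB1, the H3K9 methyltransferase that works with TRIM28, measured 8.20, 7.98, 7.42 and 7.80 in Con, IL1, IL1_TSA and Con_TSA, lower on TSA by 1.33-fold and 1.47-fold, which did not reach 1.5-fold. Of the 7 detected genes acting on H3K9, writers and erasers together, 2 were lower in both TSA contrasts and none higher. Over all genes the shares were 10.1% and 12.4%. The 2 were SUV39H1, a writer, and KDM3B, an eraser, so they do not form a pattern for the mark.

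KMT2E, a SET domain protein that binds H3K4-methylated histone rather than writing the mark, measured 8.09 in Con, 8.31 in IL1, 6.94 in IL1_TSA and 6.89 in Con_TSA. It was 2.31-fold and 2.57-fold lower on TSA. Of its 2 averaged probes, 1 was not detected on either TSA array, and the probe detected on all arrays differed by -1.33 without IL-1 and -1.27 with it. The catalytic members of this family behaved otherwise. KMT2B measured 7.63, 7.98, 7.05 and 7.37 in Con, IL1, IL1_TSA and Con_TSA, and was 1.91-fold lower in IL1_TSA than in IL1 but only 1.20-fold lower in Con_TSA than in Con. KMT2C (MLL3), which places H3K4 monomethylation at enhancers, measured 7.41, 7.46, 8.09 and 7.86, higher on TSA by 1.54-fold with IL-1 and 1.36-fold without. The call with IL-1 was lost when only its probe detected on all arrays was used (0.52), since the other averaged probe was not detected in Con or IL1. KMT2A (MLL1) lay at the limit of detection, between 6.52 (not detected, Con) and 7.09 (IL1), and was within 1.5-fold in all 4 contrasts. No H3K4 enzyme among the 7 detected was called in both TSA contrasts, where 12.4% of all genes were higher and 10.1% lower.

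**Figure D3:**
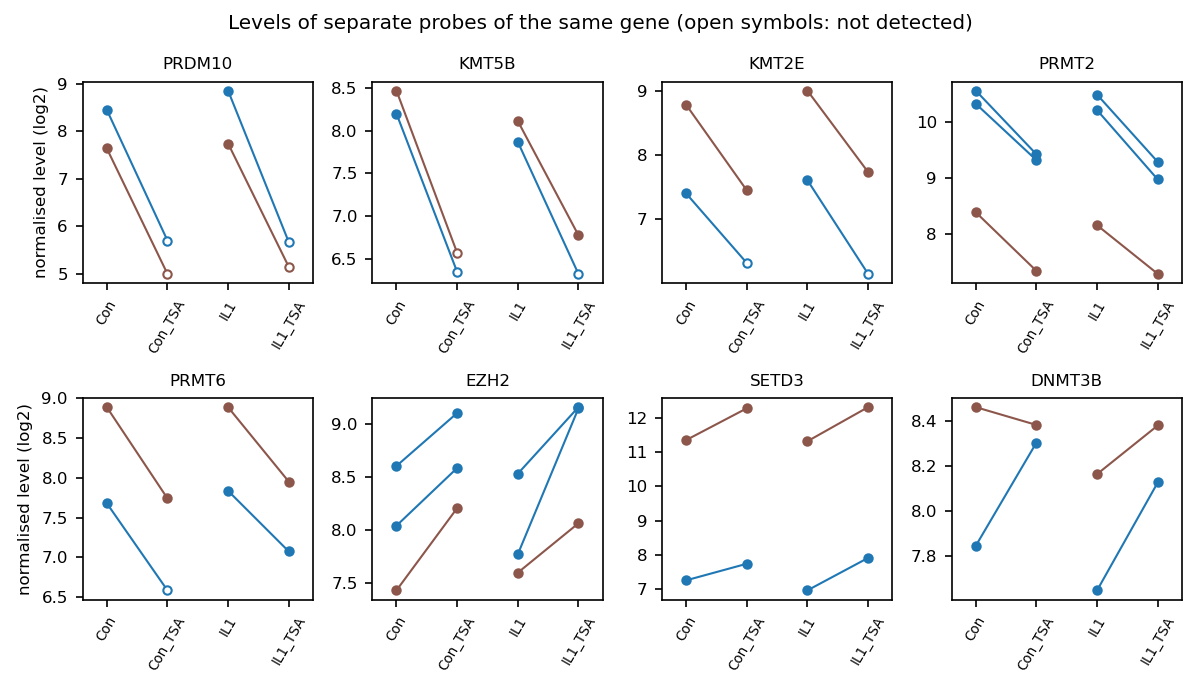
Levels (log2 units) of each detected probe of 8 genes measured by more than 1 probe, 1 line colour per probe, with lines joining Con to Con_TSA and IL1 to IL1_TSA. Open symbols are arrays on which that probe was not detected. Probes of PRDM10, KMT5B, KMT2E, PRMT2 and PRMT6 all sloped down and those of EZH2 and SETD3 all sloped up, whereas the DNMT3B probes parted without IL-1.

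EZH2 was higher on TSA. It is the catalytic subunit of Polycomb repressive complex 2 (PRC2), which methylates H3K27. Its level, averaged over 3 probes, was 8.03 in Con, 7.97 in IL1, 8.79 in IL1_TSA and 8.63 in Con_TSA, so that the TSA arrays were 1.52-fold and 1.77-fold higher. All 3 probes were higher in both contrasts, by 0.50 to 0.78 log2 units without IL-1 and by 0.47 to 1.38 with it. The value without IL-1 only just passed 1.5-fold, and it did not pass when the brightest probe stood for the gene (0.50) or without background correction (0.46). KDM6A (UTX), an H3K27 demethylase, measured 8.28, 8.72, 8.42 and 8.67 in Con, IL1, IL1_TSA and Con_TSA, with TSA differences of 0.39 and -0.30, so its arrays did not separate by TSA.

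SETD3, the actin histidine methyltransferase, was also higher on TSA. It measured 9.30 in Con, 9.14 in IL1, 10.11 in IL1_TSA and 10.01 in Con_TSA, 1.63-fold and 1.96-fold higher. The brighter of its probes had raw intensities of 2608, 2571, 6469 and 3779 in that order, and its dimmer probe was also higher on TSA. The other SETD genes lay nearly flat: SETD1A, an H3K4 methyltransferase of the COMPASS complexes, between 8.74 and 8.95, and SETD9 between 9.35 and 9.63. SETDB2, an H3K9 methyltransferase, was high in 1 array alone, at 8.22 in Con against 7.46, 7.57 and 7.61 in IL1, IL1_TSA and Con_TSA. It was therefore called lower in IL1 (1.68-fold) and in Con_TSA (1.52-fold), and both calls rest on the same Con array.

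The arginine methyltransferases divided. PRMT2 and PRMT6, both of which make asymmetric dimethylarginine, were lower on TSA. PRMT2 (3 probes) measured 9.75 in Con, 9.61 in IL1, 8.51 in IL1_TSA and 8.69 in Con_TSA, 2.09-fold and 2.14-fold lower, with every probe lower by 0.87 to 1.24 log2 units. PRMT6, which methylates arginine in the tail of histone H3, measured 8.28, 8.36, 7.51 and 7.16, lower on TSA by 2.17-fold alone and by 1.80-fold under IL-1. Its dimmer probe was not detected in Con_TSA, and the other, detected on all arrays, differed by -1.15 and -0.93.

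PRMT9, a symmetric dimethyltransferase whose known substrate is a splicing factor, went the other way. It measured 8.31 in Con, 8.03 in IL1, 8.94 in IL1_TSA and 9.18 in Con_TSA, 1.82-fold and 1.88-fold higher on TSA. PRMT1, the main asymmetric enzyme of most cells, hardly differed, at 10.70 in Con, 10.86 in IL1, 10.70 in IL1_TSA and 10.69 in Con_TSA. PRMT5, the main symmetric enzyme, was higher on TSA by 1.25-fold and 1.27-fold, within 1.5-fold. PRMT3 and PRMT7 were also within 1.5-fold in all 4 contrasts, with differences from -0.40 to 0.06. Thus 1 of 7 detected PRMT genes was higher and 2 were lower in both TSA contrasts, against 12.4% and 10.1% of all genes.

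Of the 7 detected demethylases, 1 was lower in both TSA contrasts and 0 higher, against 10.1% and 12.4% of all genes. With so few genes, that was close to the background. The lower gene was KDM3B. This H3K9 demethylase measured 8.38 in Con, 8.27 in IL1, 6.71 in IL1_TSA and 7.23 in Con_TSA, 2.23-fold and 2.96-fold lower. Its close relative KDM3A measured 9.12, 8.64, 8.46 and 8.84, lower on TSA by 1.21-fold and 1.13-fold only. KDM2B, an H3K36 demethylase that also brings Polycomb complexes to CpG islands, was highest in Con, at 10.77 against 10.27, 10.15 and 9.97 in IL1, IL1_TSA and Con_TSA. Con_TSA stood 1.74-fold below Con, and every other contrast was within 1.5-fold. KDM1A (LSD1), the flavin-dependent H3K4 demethylase, measured 10.37, 10.34, 10.65 and 10.67, with both TSA arrays above both arrays without it by 1.23-fold and 1.24-fold, short of a call. KDM5C lay between 7.22 and 7.55.

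The DNA methyltransferases were among the steadier members. DNMT1, which copies methylation to the new strand after replication, measured 11.17 in Con, 11.04 in IL1, 11.37 in IL1_TSA and 11.31 in Con_TSA. The TSA arrays were higher by 1.11-fold and 1.26-fold, and the difference without IL-1 turned from 0.15 to -0.06 under median scaling. DNMT3B, a de novo enzyme, measured 8.15, 7.90, 8.25 and 8.34, and its 2 detected probes disagreed in sign without IL-1 (0.46 and -0.08). Neither gene was called in any contrast.

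**Figure D4:**
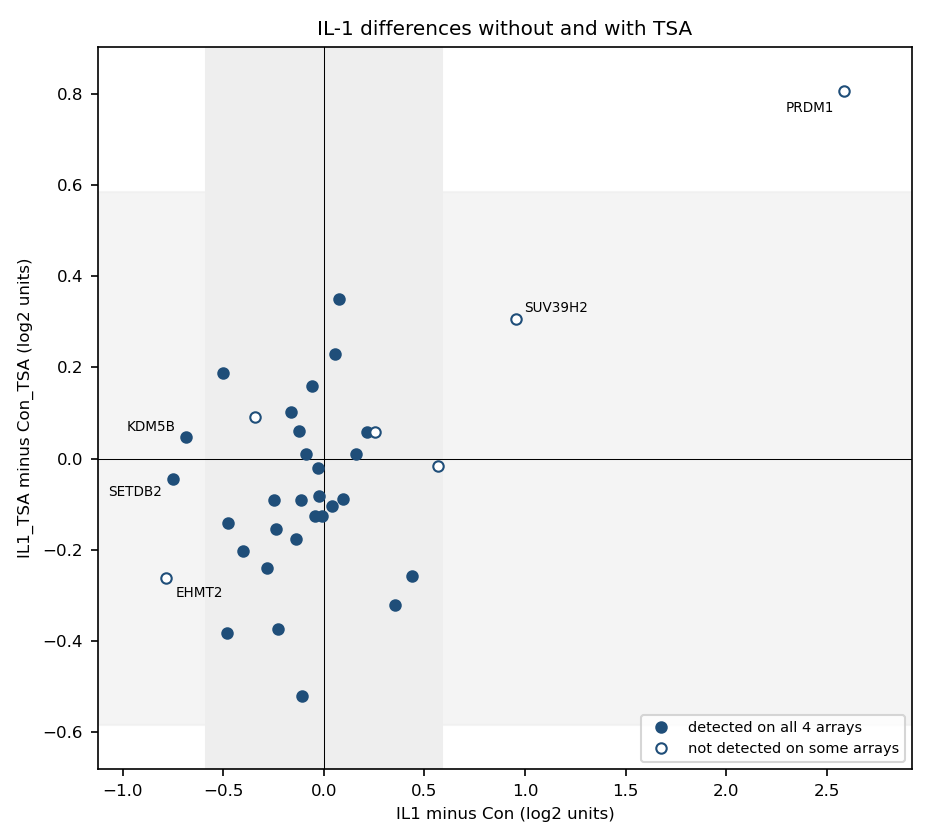
Difference between IL1 and Con (horizontal axis) and between IL1_TSA and Con_TSA (vertical axis), both in log2 units, 1 point per detected gene. Grey bands mark differences under 1.5-fold, open points were not detected on some arrays. Only 5 genes passed 1.5-fold along the horizontal axis with detection on the brighter array; PRDM1 also lay above the upper band, but it was not detected on either TSA array and so was not called there.

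Few of these genes differed after IL-1. In IL1 against Con, 2 of 35 members were higher and 3 lower (5.71% and 8.57%), against 8.54% and 7.93% of all genes, so the members stood close to the background. The median difference was -0.09, against -0.10 over all genes. With only probes detected on all arrays, 0 of 29 members were higher and 2 lower, against 6.71% and 6.32% of genes. In the deposited values 1 member was higher and 0 lower, against 3.35% and 0.849%, and 79.8% of all called genes were higher there, against 51.9% here. PRDM1 and SUV39H2 were the higher pair, the latter at least 1.35-fold, from 6.11 (not detected) in Con to 7.07. SUV39H2 was detected only in IL1, so it could not have been called lower there. In IL1_TSA against Con_TSA, 0 of 35 members were called in either direction, where 4.2% of all genes were higher and 2.75% lower. None was called with probes detected on all arrays either (2.54% and 1.93% of genes), nor in the deposited values (0.879% and 0.109%). The median there was -0.08, against -0.03. This contrast depended on the scaling: with median scaling 98.0% of all called genes were higher, against 60.4% here, the median of all genes moved to 0.35 and that of the members to 0.32, and 3 members were called higher.

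KDM5B, which removes H3K4 trimethylation, was the brightest gene lower after IL-1. It measured 10.87 in Con, 10.19 in IL1, 10.88 in IL1_TSA and 10.83 in Con_TSA, so that IL1 stood 1.61-fold below Con and the other 3 arrays lay within 0.05 log2 units of each other. The 1.61-fold higher value in IL1_TSA than in IL1 uses that same IL1 array and is no separate measurement. IL1_TSA and Con_TSA differed by 0.05. The gene has 1 detected probe, and the spread between probes at this brightness was 0.27 for IL1 against Con.

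The genes that work with these enzymes were followed as 7 lists chosen by role. The choice was made with earlier results of these data known, so the shares below only describe the lists. For all of them the background was 12.4% of all genes higher and 10.1% lower in both TSA contrasts, and with lists this small a few genes make a large share. PRC2 partners of EZH2 were detected for 9 of 10 genes, and 2 were higher in both TSA contrasts and none lower: JARID2, which guides PRC2 to its targets, by 1.59-fold and 1.72-fold, and the Polycomb-like protein PHF1 by 1.51-fold and 1.90-fold. Neither was called without IL-1 under median scaling (0.45 and 0.42). PHF19, another Polycomb-like protein, was lower in IL1_TSA than in IL1 by at least 1.54-fold and was within 1.5-fold without IL-1 (-0.54), and under median scaling it was called lower in both (-0.63 and -0.65). RBBP7 was higher without IL-1 (1.61-fold) and 1.33-fold higher with it. The core subunits EED and SUZ12 were within 1.5-fold, SUZ12 at 12.05 in Con and 12.47 in Con_TSA and EED at 8.47 and 8.28. The list's median was 0.31 without IL-1 and 0.36 with it.

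Subunits and partners of the COMPASS complexes, which support the KMT2 and SETD1 enzymes, differed in both directions. Of 12 genes, all detected, 2 were higher and 2 lower in both TSA contrasts, with list medians of 0.13 and 0.16. RBBP5, a core subunit, measured 8.77 in Con, 8.55 in IL1, 10.38 in IL1_TSA and 10.42 in Con_TSA, 3.13-fold and 3.56-fold higher. CXXC1, which binds unmethylated CpG, was 2.04-fold and 1.67-fold higher. HCFC1 was 2.86-fold and 2.97-fold lower, from 11.45 in Con to 9.94 in Con_TSA, and the coactivator NCOA6 was 2.32-fold and 2.65-fold lower. WDR5 and ASH2L, also core subunits, were within 1.5-fold, and DPY30, another, was 1.16-fold higher without IL-1 and 1.53-fold higher with it.

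Proteins that read or repair methylated DNA were lower in 5 of 11 detected genes in both TSA contrasts and higher in none, with a list median of -0.54 and -0.47. That was 45.5% of the list, against 10.1% of all genes, and it was 45.5% under median scaling of the same 4 arrays. In the deposited values it was 0%, against 2.31% of all genes, with list medians of -0.28 and -0.33. In Con_TSA against Con alone, MBD1 was higher, by 0.59 in log2 units. UHRF1, which brings DNMT1 to replicating DNA, measured 10.07 in Con, 10.04 in IL1, 9.22 in IL1_TSA and 9.13 in Con_TSA, 1.91-fold and 1.76-fold lower, whereas DNMT1 was within 1.5-fold. The methyl-CpG binding zinc finger proteins ZBTB33 (Kaiso), ZBTB4 and ZBTB38 were all lower. ZBTB4 was 2.66-fold and 1.90-fold lower, and ZBTB38, not detected in Con_TSA, was at least 3.11-fold and 3.58-fold lower. MBD6 was the fifth.

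Readers of histone methylation were detected for 14 of 20 genes, 3 of them higher and 1 lower in both TSA contrasts, with list medians of 0.24 and 0.28. The Polycomb chromobox proteins CBX2 (2.04-fold and 3.54-fold) and CBX7 (2.03-fold and 2.11-fold) were higher, as was the H3K4 reader ING1 (2.59-fold and 2.43-fold). L3MBTL2 was lower by 1.68-fold and 1.65-fold, and its difference with IL-1 was -0.51 under median scaling, short of a call. CBX2 was also 1.82-fold lower in IL1 than in Con.

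Supply of the methyl donor showed its largest difference in NNMT, which uses up S-adenosylmethionine by methylating nicotinamide. It measured 11.14 in Con, 11.79 in IL1, 8.79 in IL1_TSA and 9.07 in Con_TSA, 4.17-fold and 7.98-fold lower on TSA and 1.57-fold higher on IL-1. MTRR, which keeps methionine synthase active, was 2.09-fold and 2.50-fold higher, and AHCYL2 1.82-fold and 2.36-fold. MAT2A, the enzyme that makes S-adenosylmethionine, lay between 11.84 and 12.14. Of 13 detected genes in this list, 2 were higher and 1 lower in both contrasts (15.4% and 7.69%), close to the background, with medians of 0.09 and 0.25.

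Histone methylation enzymes named outside the families above were detected for 10 of 16 genes. SMYD4 was higher in both TSA contrasts (1.63-fold and 1.80-fold), and SMYD1 (2.21-fold and 2.38-fold) and SMYD2 (1.59-fold and 1.60-fold) were lower. Under median scaling SMYD4 without IL-1 (0.48) and SMYD2 with it (-0.46) were not called. MECOM encodes the PR domain factor PRDM3 and so belongs with the PRDM genes by structure. It measured 8.58 in Con, 7.39 in IL1, 7.35 in IL1_TSA and 7.84 in Con_TSA. It was 2.28-fold lower in IL1 and 1.67-fold lower in Con_TSA than in Con (-0.38 and -0.30 in the deposited values). Both calls rest on the same Con array, and IL1_TSA against IL1 differed by -0.04. The list's medians were -0.25 and -0.36. Of 7 PRMT partners, TDRD3, a reader of arginine methylation, was lower in both TSA contrasts by at least 1.77-fold and at least 1.90-fold, and BTG1, a cofactor of PRMT1, was 1.99-fold higher in IL1 than in Con. Their medians were 0.12 and 0.14.

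The size of the differences depended on how the intensities were processed. In the authors' deposited values, which went through a variance-stabilising transformation, 0 of the 13 genes called in both TSA contrasts reached 1.5-fold in both, but all 13 kept their sign in both. There PRDM10 differed by -0.44 and -0.54, against -2.69 and -2.89 here, and EZH2 by 0.26 and 0.32, against 0.61 and 0.82. PRDM4 (-0.63 without IL-1), PRDM1 (-1.01 with IL-1), PRMT2 (-0.59 with IL-1) and SETD3 (0.59 with IL-1) still passed in 1 contrast. The background fell too. In Con_TSA against Con, 1 member was lower and 0 higher, with 3.97% and 5.02% of all genes. In IL1_TSA against IL1, 2 were lower and 1 higher, with 5.79% and 6.36%, and in both contrasts 2.31% and 3.63% of all genes were called.

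**Figure D5:**
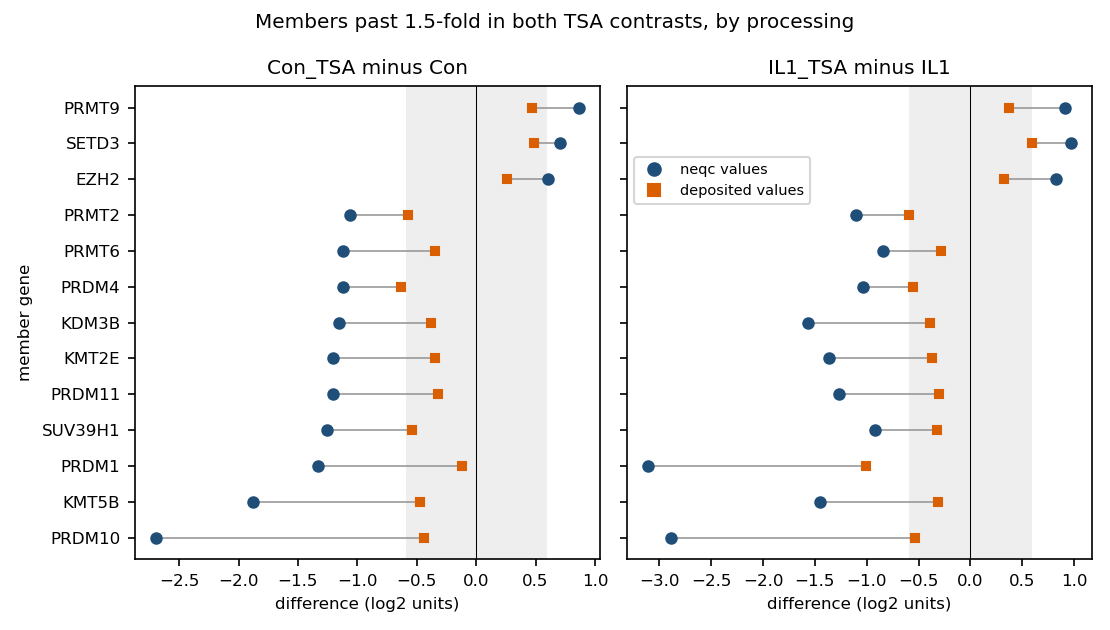
Log2 difference of the 13 genes called in both TSA contrasts, in Con_TSA against Con (left) and IL1_TSA against IL1 (right), from the background-corrected, quantile-normalised values (circles) and from the deposited values (squares). Grey bands mark differences under 1.5-fold. Each pair lies on the same side of 0, and every square lies nearer to 0 than its circle.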

How the data were processed

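Total RNA of SW1353 cells was hybridised to Illumina whole-genome bead arrays (Human HT-12 V4 in the methods), 1 array for each of 4 conditions. The authors deposited raw probe intensity values with a detection p-value for each probe and array. They also deposited log2 values from the lumi package, which had stabilised their variance and aligned the arrays with robust splines. The lumi version was not given in the sources used here.

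Raw intensities were background-corrected, quantile-normalised and log2-transformed with neqc of limma 3.58.1 (R 4.3.3, offset 16), which infers the negative controls from the detection p-values. The spread of the deposited log2 values among dim genes is narrower than that of these values. Probes were named from the platform annotation supplied with the series, which lists 27578 of 48784 probes and appears to describe another version of the array; the other 21206 were not named. Probes with detection p under 0.01 on at least 1 array were kept and averaged per gene. Where a gene was not detected on the dimmer array, the bound used the higher of its own level and the lowest detected level on that array. With 1 array per condition no test was run. The steps were tested on simulated data. The members and lists were chosen with earlier results of these data known. Genes given in full were those called in both TSA contrasts, the 10 largest differences each way in each contrast among members detected on both arrays, all detected DNMT, EZH and EHMT genes and the brightest gene of each family; others complete a family. Alternatives were median scaling, no background correction, the deposited values, other filters on dim probes, the brightest probe of a gene and a 2-fold threshold. KDM5D is counted among the members and its values are not reported here.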

Additional observations from a re-analysis of the deposited data

How the results depend on the processing

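Over 536 comparisons of the genes given in full with an alternative setting, 207 concerned a called difference, and 0 of these changed sign. Part of the 536 could not change. A gene with 1 kept probe has the same value when its brightest probe is used. A gene with no probe left out by the filter has the same value when the filter is dropped. Among the differences within 1.5-fold, 30 changed sign, 14 with median scaling and 8 in the deposited values, and none of these exceeded 0.32 in size. In all, 436 moved by less than the spread between probes of a gene, counting those that could not change, and 100 moved by more. Of these 100, 40 were with the deposited values and 24 with median scaling. The counts of lower genes in the TSA contrasts held under median scaling (12, 12 and 10 in both) but not in the deposited values, where 1, 2 and 0 remained. Among the genes lower in both TSA contrasts, only KMT2E, KMT5B, PRDM10, PRMT2 and PRMT6 had more than 1 kept probe. Only these could change when the brightest probe was used. The 10 genes lower in both TSA contrasts were all called again under median scaling, without background correction and with the brightest probe. Of them 9 were called without a detection filter, where PRDM1 was lost, 7 when only probes detected on all 4 arrays were used, which left out KMT5B, PRDM1 and PRDM10, and 8 at 2-fold, where PRMT6 and SUV39H1 were lost.

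The counts of higher genes were less stable. Members higher in Con_TSA against Con numbered 3, and 0 at 2-fold, 0 in the deposited values and 1 with median scaling. In IL1_TSA against IL1 they numbered 6, and 0 at 2-fold and 1 in the deposited values. In both TSA contrasts they numbered 3, and 0 at 2-fold, 0 in the deposited values and 1 with median scaling. In IL1_TSA against Con_TSA they numbered 0, and 3 with median scaling, which moved the members' median from -0.08 to 0.32. In IL1 against Con, 2 members were higher, and 1 at 2-fold, 1 in the deposited values, 1 without background correction and 0 with probes detected on all arrays. There 3 were lower, and 0 at 2-fold, 0 in the deposited values and 1 without background correction. The cause was not tested.

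The background moved with the setting. Of all 10128 genes, 2-fold left 6.83% higher and 7.15% lower in Con_TSA against Con, 10.5% and 9.38% in IL1_TSA against IL1, and 4.90% and 1.76% in IL1 against Con. Median scaling gave 11.0% and 23.0%, 29.6% and 12.9%, and 8.44% and 8.81% in the same order, and 20.5% higher in IL1_TSA against Con_TSA. Without background correction 6.5% were higher and 3.56% lower in IL1 against Con. Median scaling and the deposited values were also applied to the lists of partner genes, an alternative chosen after seeing the data. In the deposited values only RBBP5, JARID2, CBX2 and ING1 were called higher in both TSA contrasts, and only HCFC1, NCOA6 and NNMT lower. Under median scaling the medians of the COMPASS, PRMT partner and methyl supply lists turned below 0 without IL-1 (-0.06, -0.09 and -0.08).

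No paired analysis was possible because each condition is 1 array, and for the same reason no replicate was left out. A deviation of a whole array cannot be told apart from its treatment. Genes near the detection limit, among them EHMT2, KMT2A, SUV39H2 and PRDM1, have the least certain values.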
